A study of Mus musculus with 24 samples.

Results

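In mouse embryonic fibroblasts that had not been reprogrammed, the sites of the linker histone H1.0 were set against those of the heterochromatin mark H3K9me3. The comparison used the 4 ground-state lists of the series, 2 for H1.0 and 2 for H3K9me3, chosen by antibody and time label from 24 samples in all. Peaks on chromosomes 1 to 19 and X were kept. All 4 lists came from the line iMGT-Myh6-eGFP-MEF, in which doxycycline switches on Mef2c, Gata4 and Tbx5 and eGFP reports Myh6. Both antibodies therefore shared this genotype, and the labels give no treatment for these cells, although the library names carry the word siControl. The sources used here do not say whether the line is 1 clone, nor what was repeated between replicates, so the spread between lists may be partly technical. The added transgene copies cannot be told apart from the cells' own Mef2c, Gata4 and Tbx5 in what follows. The method was CUT&RUN, in which an antibody brings a nuclease to the bound protein and the released DNA is sequenced. Under siControl at day 1 of induction of the same line, 4 further lists (2 per antibody) served as an added comparison.

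Linker histones bind the nucleosome where DNA enters and leaves it and help the fibre to fold. H1.0, encoded by H1f0, is the variant that builds up in cells that slow or stop dividing, and its binding is broad and only partly selective. H3K9me3 is the trimethylated form of lysine 9 of histone H3. The enzymes SUV39H1, SUV39H2 and SETDB1 write it, HP1 proteins (such as the product of Cbx5) read it, and TRIM28 brings SETDB1 to sites chosen by zinc finger repressors. It is known for covering repeats, zinc finger gene clusters and genes of other lineages.

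The lists of each antibody differed widely in size, along a split that also runs through their names. H1.0 replicate 1 held 85700 peaks over 92.9 Mb (3.53% of the genome) and H1.0 replicate 2 held 412687 peaks over 1109 Mb (42.1%). H3K9me3 replicate 1 held 24154 peaks over 65.7 Mb (2.50%) and H3K9me3 replicate 2 held 65598 peaks over 315 Mb (12%). Covered length overlapped between antibodies (exact permutation test, two-sided, p = 0.667), and the mean difference of 411 Mb became -97.2 Mb without H1.0 replicate 2. The names of the deposited lists fall into 2 series, with replicate 1 of both antibodies in one and replicate 2 in the other, and whether these are batches is not given in the sources used here. The series of the replicate 2 lists covered more sequence for each antibody at day 1 too (911 against 28.5 Mb for H1.0 and 363 against 109 Mb for H3K9me3). Values within a replicate number are therefore values within a series in the ground state. Because the list lengths differ, most comparisons use the 20000 peaks with the highest maximum signal in each list, which was 23.3%, 4.85%, 82.8% and 30.5% of the 4 lists in the order above. Per the labels each sample had 30 M reads, and how many of them aligned is not given in the sources used here.

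The promoters that carried the strongest peaks of 1 kind are printed as examples and need not be typical of each antibody. The 7 windows below had the highest ranks among windows under both lists of 1 antibody and no list of the other, or under all 4, with all peaks used, and were picked by that rank after the data were seen. Each line holds the 250 bases before a gene start, 5′ to 3′ on the gene's strand, from RefSeq on GRCm38.p6, the assembly of mm10, and capitals mark CpG dinucleotides.
Gm5165: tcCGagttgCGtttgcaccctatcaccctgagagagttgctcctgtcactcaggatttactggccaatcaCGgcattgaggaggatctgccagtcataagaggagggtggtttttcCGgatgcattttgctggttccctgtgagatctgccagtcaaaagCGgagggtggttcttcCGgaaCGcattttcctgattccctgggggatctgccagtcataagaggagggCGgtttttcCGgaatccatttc
Methig1: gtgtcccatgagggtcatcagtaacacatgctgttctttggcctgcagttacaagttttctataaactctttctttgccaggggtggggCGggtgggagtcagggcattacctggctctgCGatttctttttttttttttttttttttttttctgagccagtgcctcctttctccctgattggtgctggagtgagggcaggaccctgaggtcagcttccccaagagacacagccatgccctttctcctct
Ugt1a1: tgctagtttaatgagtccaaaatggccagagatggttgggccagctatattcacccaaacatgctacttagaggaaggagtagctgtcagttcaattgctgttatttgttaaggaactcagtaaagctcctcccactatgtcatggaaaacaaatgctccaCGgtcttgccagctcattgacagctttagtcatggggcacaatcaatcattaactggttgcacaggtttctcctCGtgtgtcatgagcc
Gm29758: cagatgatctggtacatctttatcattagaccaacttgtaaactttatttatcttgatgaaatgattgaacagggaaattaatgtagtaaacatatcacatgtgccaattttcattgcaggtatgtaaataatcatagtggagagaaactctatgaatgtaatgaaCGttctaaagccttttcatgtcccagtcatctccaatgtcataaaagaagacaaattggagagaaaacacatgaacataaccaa
4930522L14Rik: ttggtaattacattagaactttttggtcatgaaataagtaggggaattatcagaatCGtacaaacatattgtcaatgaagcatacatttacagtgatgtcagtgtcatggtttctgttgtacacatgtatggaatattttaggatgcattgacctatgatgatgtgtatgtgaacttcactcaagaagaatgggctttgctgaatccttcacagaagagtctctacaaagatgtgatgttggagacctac
Tcfl5: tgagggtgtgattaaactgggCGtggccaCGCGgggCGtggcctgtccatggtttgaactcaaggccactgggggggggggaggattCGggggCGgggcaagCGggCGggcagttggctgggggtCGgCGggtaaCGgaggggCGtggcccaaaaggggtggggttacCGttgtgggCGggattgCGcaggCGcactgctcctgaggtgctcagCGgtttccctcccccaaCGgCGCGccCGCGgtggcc
A530032D15Rik: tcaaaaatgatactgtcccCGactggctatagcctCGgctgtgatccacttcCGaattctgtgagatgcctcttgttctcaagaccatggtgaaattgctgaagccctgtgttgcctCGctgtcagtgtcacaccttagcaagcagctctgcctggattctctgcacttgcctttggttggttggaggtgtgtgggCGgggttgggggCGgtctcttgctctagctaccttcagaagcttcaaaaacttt
The maxima that follow belong to whole peaks over a window, so the highest signal may lie outside the printed bases. The first 3 lay under both H1.0 lists alone. Gm5165 (chr17:17234653-17234902, plus strand) reached a maximum of 14 and 92 in H1.0 replicates 1 and 2. Methig1 (chr15:100352950-100353199, plus strand) reached 15 and 23. Ugt1a1 (chr1:88211709-88211958, plus strand), whose product conjugates bilirubin, reached 20 and 23. The next 3 lay under both H3K9me3 lists alone. Gm29758 (chr12:20434911-20435160, plus strand) reached 31 and 81 in H3K9me3 replicates 1 and 2, and 4930522L14Rik (chr5:109739218-109739467, minus strand) reached 34 and 68. Tcfl5 (chr2:180642692-180642941, minus strand), a helix-loop-helix factor of the male germline, reached 26 and 47. A530032D15Rik (chr1:85109854-85110103, minus strand) lay under all 4 lists, at 18 and 23 for H1.0 and 20 and 54 for H3K9me3. In the same order these windows held 9, 2, 2, 1, 1, 22 and 6 CpGs and 52.4%, 49.2%, 44.8%, 32.4%, 36.0%, 70.4% and 51.6% GC.

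Over all promoters, those under H3K9me3 were poorer in GC and CpG than those under H1.0. The table of RefSeq promoters held 21045 windows of protein-coding genes (250 bases before to 50 after the start, chromosome 18 not included) for 17274 of 21631 genes. Their median GC was 56.7% and their median ratio of observed to expected CpG was 0.57. Windows under the top 20000 peaks of H1.0 replicates 1 and 2 numbered 581 and 2767, with a median GC of 57.7% and 55.7% and a CpG ratio of 0.54 and 0.60. Those under H3K9me3 replicates 1 and 2 numbered 208 and 527, with a median GC of 48.0% and 48.7% and a CpG ratio of 0.22 and 0.24. The 2 H1.0 lists thus lay near the value of all promoters and the 2 H3K9me3 lists below it. With all peaks, 100 windows lay under both H3K9me3 lists and no H1.0 list. These were less far below, with a median GC of 53.0% and a CpG ratio of 0.35. The 1419 windows under both H1.0 lists and no H3K9me3 list had 58.0% and 0.61. Tcfl5, printed above, had a CpG ratio of 0.78, well over the H3K9me3 medians. Of the printed H1.0 windows, Methig1 and Ugt1a1 had 0.13 and 0.16, well under the H1.0 medians, and Gm5165 had 0.53. The AP-1 motif TGANTCA, which reads the same on both strands, occurred in 7.04% of all windows. Under the top peaks its share was 6.54% and 6.58% for H1.0 and 8.17% and 9.11% for H3K9me3. The order was the other way for windows under both lists of 1 antibody and none of the other, with all peaks used, at 7.89% (112 of 1419) for H1.0 and 5.00% (5 of 100) for H3K9me3. None of the printed promoters holds it.

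Peak width did not separate the antibodies over the top 20000 peaks, but did over the strongest and over all peaks. The median width of the top 20000 peaks was 991 bp and 4570.5 bp in the H1.0 lists and 2128 bp and 4187 bp in the H3K9me3 lists, so each antibody had 1 narrow and 1 wide list. The difference of means, H1.0 minus H3K9me3, was -377 bp (exact permutation test, two-sided, p = 1.00, n = 2 per antibody). It was 1413 bp without H1.0 replicate 1, -2166 bp without H1.0 replicate 2, -1406 bp without H3K9me3 replicate 1 and 653 bp without H3K9me3 replicate 2. Over the top 1000 peaks the median was 1192 bp and 2752.5 bp for H1.0 and 4986.5 bp and 6224 bp for H3K9me3, which did not overlap (exact permutation p = 0.333, the smallest possible). Over all peaks it was 1001 bp and 1881 bp for H1.0 and 2049 bp and 2967 bp for H3K9me3, again without overlap (exact permutation p = 0.333). Over the top 20000 the difference of medians was -1137 bp within replicate 1 and 384 bp within replicate 2. Peaks of 10 kb or more made up 0.117% and 9.99% of the sequence in the H1.0 lists and 5.20% and 32.5% in the H3K9me3 lists, and the longest peak of the 4 lists spanned 514914 bp in H3K9me3 replicate 2. At each replicate number the H3K9me3 share was the higher, but the groups overlapped. In absolute length H1.0 replicate 2 held more, with 7643 such peaks over 111 Mb against 4625 over 102 Mb in H3K9me3 replicate 2.

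Among the top 20000 peaks, H1.0 lay in genes and next to their ends more than H3K9me3 did in every pairing of lists, while among the top 100 it did not. Gene bodies of protein-coding genes took 54.2% and 43.0% of the H1.0 sequence and 28.9% and 27.9% of the H3K9me3 sequence, against 39.1% of the genome. The H1.0 lists were thus above the genome and the H3K9me3 lists below it. The mean was 48.56% ± 7.91 (SD, n = 2) for H1.0 and 28.36% ± 0.699 (SD, n = 2) for H3K9me3, a difference of 20.2 percentage points (25.3 within replicate 1 and 15.1 within replicate 2). Peak midpoints within 5 kb of either end of a protein-coding gene made up 20.5% and 18.7% of H1.0 peaks and 8.57% and 8.87% of H3K9me3 peaks, where 12.3% of the genome lies. The means were 19.62% ± 1.25 and 8.718% ± 0.209 (SD, n = 2), a difference of 10.9 percentage points (11.9 and 9.87 within replicates 1 and 2). Neither measure overlapped between antibodies, and the exact permutation test gave p = 0.333 for each, the smallest that 2 lists against 2 allow. The day 1 lists fell on the same sides, with gene-body shares of 50.46% and 51.06% for H1.0 and 28.64% and 25.69% for H3K9me3. With them added, 4 lists stood against 4 and both measures gave an exact permutation p = 0.0286, again the smallest possible. That test pools ground-state and induced cells.

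**Figure D1:**
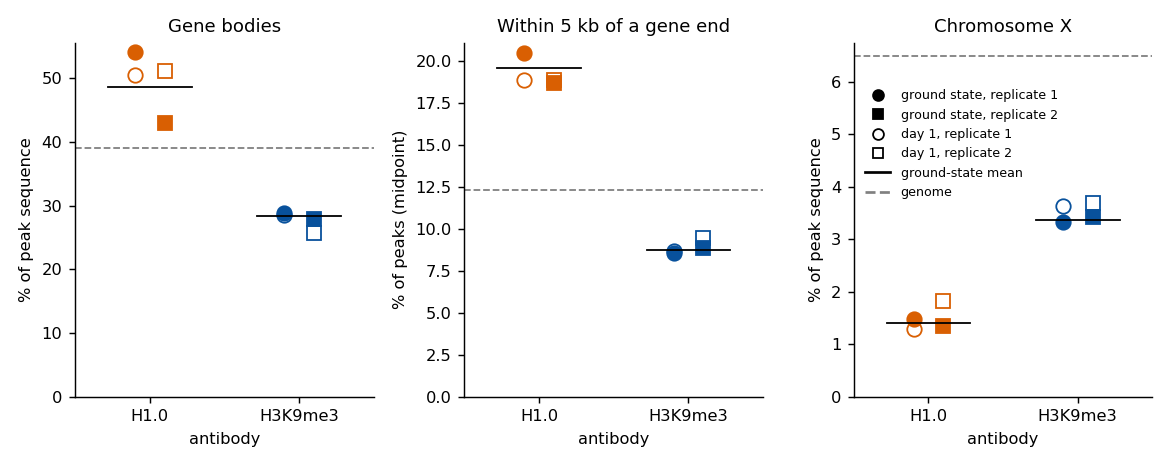
Share of the top 20000 peaks in protein-coding gene bodies (% of peak sequence), within 5 kb of a gene end (% of peak midpoints) and on chromosome X (% of peak sequence), for H1.0 and H3K9me3. Filled points are ground-state lists, open points day 1 siControl lists, circles replicate 1, squares replicate 2, black lines ground-state means and dashed lines the share of the genome. Ground-state gene-body shares are 54.2% and 43.0% for H1.0 against 28.9% and 27.9% for H3K9me3.

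The strongest peaks went the other way. Among the top 100 peaks of each list gene bodies took 35.4% and 17.6% of the H1.0 sequence and 44.8% and 22.6% of the H3K9me3 sequence, and gene ends took 16.0% and 4% of H1.0 peaks and 23.0% and 8% of H3K9me3 peaks, so both mean differences were reversed (-7.16 and -5.50 percentage points) with overlapping groups. Among the top 1000 the groups still overlapped, with 42.7% and 32.3% of H1.0 and 33.8% and 28.3% of H3K9me3 in gene bodies. From the top 5000 on they did not, at 50.1% and 42.0% against 29.3% and 29.1%.

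The gene-body difference held without ranking, at 52.5% and 40.8% of all H1.0 peak sequence and 28.6% and 26.7% of all H3K9me3 peak sequence. H1.0 replicate 2, which covers 42.1% of the genome, was then close to the genome's own share of 39.1%. Its gene-end share of 12.5% over all peaks was likewise close to the 12.3% of the genome, while H1.0 replicate 1 kept 19.5%.

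The contrast was steepest at gene starts. Peak midpoints under 0.5 kb from the nearest annotated start were 2.68 and 4.85 times as frequent as the genome share of that zone in the H1.0 lists, and 0.50 and 0.40 times in the H3K9me3 lists. In peaks, these were 393 of 19731 and 706 of 19556 for H1.0 and 73 of 19539 and 57 of 19382 for H3K9me3. The H1.0 lists differed in reach. H1.0 replicate 1 stayed at 1.36 to 1.43 times the genome share in each zone from 1 to 50 kb, while H1.0 replicate 2 was at 2.26 from 1 to 2 kb and at 0.93 from 5 to 10 kb. The H3K9me3 lists were at 1.00 and 1.06 from 5 to 10 kb. Beyond 50 kb the values were 0.73 and 0.89 for H1.0 and 1.03 and 0.96 for H3K9me3.

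**Figure D2:**
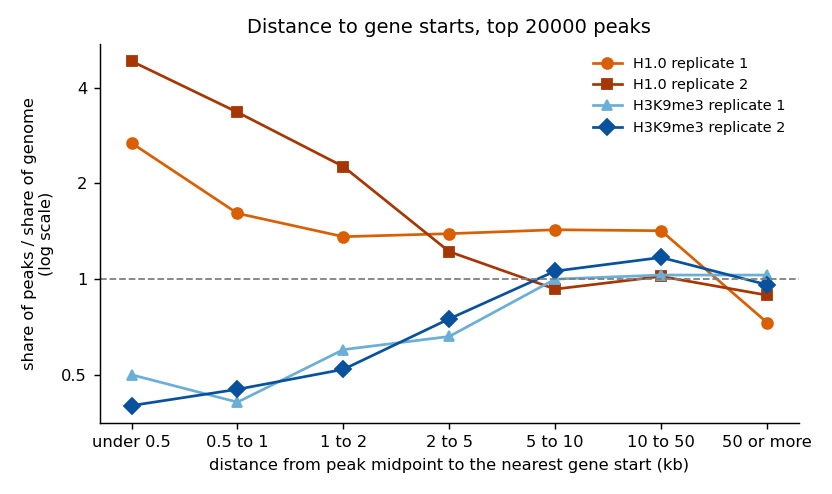
Share of top 20000 peak midpoints in each zone of distance (kb) from the nearest annotated start of a protein-coding gene, divided by the share of the genome in that zone (log axis, 1 line per ground-state list). The H1.0 lists are at 2.68 and 4.85 under 0.5 kb and the H3K9me3 lists at 0.50 and 0.40.

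Among the top 20000 peaks chromosome X carried less of both than its length, and less H1.0 than H3K9me3. It held 1.49% and 1.34% of the H1.0 sequence and 3.33% and 3.42% of the H3K9me3 sequence, against 6.49% of the genome. The difference was -1.96 percentage points (1.413% ± 0.102 against 3.375% ± 0.0612, SD, n = 2; exact permutation p = 0.333, and p = 0.0286 with the day 1 lists added). The order was turned among the top 1000 peaks, with 2.99% and 5.32% for H1.0 and 1.77% and 2.33% for H3K9me3. Over all peaks the groups overlapped, with 1.68% and 4.54% for H1.0 and 3.24% and 4.25% for H3K9me3. Copy number of X in this line was not measured here.

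Of the 20 chromosomes, 4 had a higher share in both H1.0 lists than in either H3K9me3 list (1, 9, 11 and 15) and 8 a lower one (3, 5, 7, 8, 12, 13, 18 and X). None passed, since each had an exact permutation p = 0.333 and an adjusted p of 0.556 (Benjamini-Hochberg over 20 chromosomes). Chromosome 11 was at 2.36 and 1.06 times its genome share in the H1.0 lists and at 0.66 and 0.61 in the H3K9me3 lists. Chromosome 5 was at 0.85 and 2.18 for H1.0 and at 2.83 and 2.48 for H3K9me3, where it ranked first of the 20 chromosomes in both lists. The H1.0 lists disagreed with each other on several chromosomes, such as 2 (1.26 and 2.59) and 8 (0.30 and 0.74). Across the 20 chromosomes Pearson's r, given as a description since all points come from the same libraries, was 0.96 between the H3K9me3 lists and 0.49 between the H1.0 lists. H1.0 replicate 2 had r of 0.77 and 0.67 with the H3K9me3 lists, and H1.0 replicate 1 had 0.20 and 0.18.

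**Figure D3:**
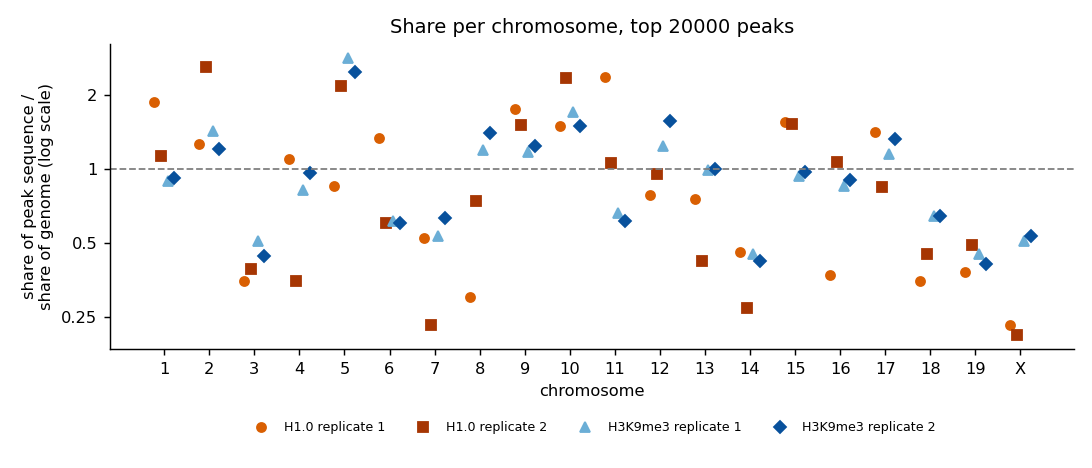
Share of top 20000 peak sequence on each chromosome divided by the chromosome's share of the genome (log axis), 1 point per ground-state list. Chromosome X lies at 0.23 and 0.21 for H1.0 and at 0.51 and 0.53 for H3K9me3, and the dashed line marks the genome share.

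The H3K9me3 lists shared far more sequence with each other than the H1.0 lists did. With the top 20000 peaks, 89.3% of the H3K9me3 replicate 1 sequence lay under H3K9me3 replicate 2, which covered 5.69% of the genome with those peaks, a ratio of 15.69. Of the H1.0 replicate 1 sequence, 15.2% lay under H1.0 replicate 2, which covered 4.92%, a ratio of 3.08. The Jaccard index, shared over joint length, was 32.9% for the H3K9me3 pair and 2.43% for the H1.0 pair. The 4 pairs across antibodies had 1.41% to 2.58%, a range that takes in the H1.0 pair. The mean was 17.7% within and 1.92% between antibodies, a difference of 15.7 percentage points (exact permutation over the 3 ways to pair 4 lists, p = 0.333, the smallest possible).

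Whether H1.0 covered H3K9me3 sequence more than the genome depended on the H1.0 list. With all peaks, H1.0 replicate 1 lay over 6.22% and 3.94% of the sequence of the H3K9me3 lists, against 3.53% of the genome, which is 1.76 and 1.12 times. H1.0 replicate 2 lay over 34.9% and 34.5%, against 42.1% of the genome, which is 0.83 and 0.82 times. The mean log2 ratio over the 4 pairs was 0.10 ± 0.52 (SD), with the H1.0 lists on opposite sides of 0. It was 0.49 without H1.0 replicate 2, -0.28 without H1.0 replicate 1 and -0.07 without H3K9me3 replicate 1.

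Rank classes also set the H1.0 lists apart, but these classes differ in size between lists. Each list was cut by maximum signal into 10 rank classes of equal size. The highest class held 8570 peaks in H1.0 replicate 1 and 41269 in H1.0 replicate 2. In H1.0 replicate 1 the highest class was under H3K9me3 replicates 1 and 2 at 4.49 and 2.05 times the genome share, and the lowest class at 1.33 and 1.00 times. In H1.0 replicate 2 the order was turned, with 0.74 and 0.63 in the highest class and 1.30 and 1.20 in the lowest. Seen from H3K9me3, its highest class lay under H1.0 replicate 1 at 2.39 times (replicate 1) and 1.93 times (replicate 2) the genome share, and its lowest class at 1.09 and 0.59 times. Under H1.0 replicate 2 every class of both H3K9me3 lists lay between 0.73 and 0.87. Of the top 100 peaks of H1.0 replicate 2, 75 touched a peak of H3K9me3 replicate 2 and 11 one of replicate 1, while of its top 20000 the shares were 21.6% and 5.49%. In H1.0 replicate 1, 39 of the top 100 and 18.9% of the top 20000 touched H3K9me3 replicate 2. At equal numbers of peaks both H1.0 lists touched H3K9me3 more often in the top 1000 than in the top 20000. Of the top 1000, 52.3% (H1.0 replicate 1) and 62.5% (H1.0 replicate 2) touched H3K9me3 replicate 2. For H3K9me3 replicate 1 these were 27.1% and 8.50%, against 7.70% and 5.49% of the top 20000. Touching counts peaks, whereas the rank classes measure sequence.

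**Figure D4:**
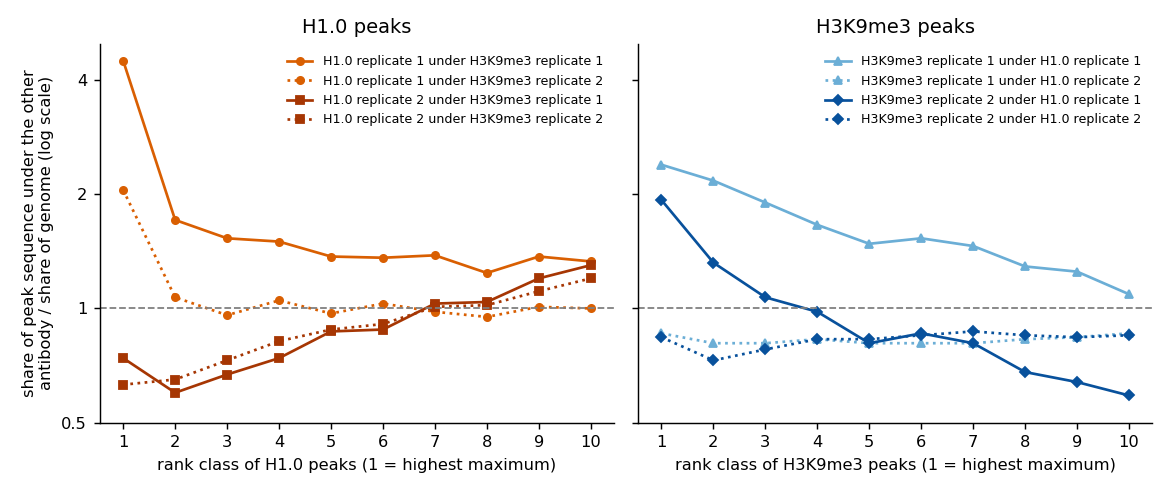
Share of peak sequence under the other antibody's list (all peaks) divided by that list's share of the genome (log axis), for peaks ranked by maximum signal into 10 equal classes (1 = highest). The highest class of H1.0 replicate 1 lies at 4.49 and 2.05, that of H1.0 replicate 2 at 0.74 and 0.63.

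H1.0 peaks that did lie under H3K9me3 had gene-body shares near those of H3K9me3 itself. Of the sequence under both H3K9me3 lists 28.7% lay in gene bodies, so choosing midpoints there can itself bring their share near it. The midpoint lay under both H3K9me3 lists for 1218 of the top 20000 peaks of H1.0 replicate 1 (6.09%) and for 391 of replicate 2 (1.96%). Of these, 29.1% and 27.9% had their midpoint in a gene body, against 57.9% and 44.9% of the peaks under neither. Gene ends took 13.8% and 14.6% of the former and 22.7% and 20.3% of the latter, and chromosome X took 3.28% and 3.07% against 1.06% and 1.85%. The values were not graded by the number of H3K9me3 lists. The 2346 and 1970 H1.0 peaks under only 1 H3K9me3 list had 27.2% and 20.7% in gene bodies. Of them, 8.31% and 5.89% lay at gene ends and 5.16% and 7.87% on chromosome X. H3K9me3 peaks did not part in this way by gene body. Their gene-body share was 29.1% and 27.5% under both H1.0 lists and 30.1% and 29.3% under neither. Gene ends took 12.8% and 10.2% of those under both and 7.82% and 9.34% of those under neither. These values describe overlapping lists and were not tested.

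A gene was counted as marked in a list when its body or the 5 kb beyond either end touched a top 20000 peak. H1.0 alone, in both lists with no H3K9me3 list, marked 1451 of 21631 protein-coding genes (6.71%). H3K9me3 alone marked 1146 (5.30%), and all 4 lists marked 899 (4.16%). The median length of these genes was 40.6, 20.1 and 144 kb, and that of all protein-coding genes 17.3 kb, and the part of length in the classes was not tested. The counts moved with the lists, and without a list they could only stay or rise, since a condition of the class is dropped. Genes of H1.0 alone numbered 4064 without H1.0 replicate 1 and 4138 without H1.0 replicate 2. Those of H3K9me3 alone numbered 1834 without H1.0 replicate 2 and 1817 without H3K9me3 replicate 1, and those of all 4 lists 1587 and 1446 without H1.0 replicate 1 or 2. With all peaks H1.0 alone took 8135 genes and H3K9me3 alone 46.

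The H1.0-only genes with the highest peaks had varied roles. Regions and genes were ranked by the lower of their 2 percentiles within the lists, and gene coverage below uses all peaks. The first region, chr6:48121096-48123294, lay 34.1 kb from Zfp746 and reached a maximum of 148 and 152 in the H1.0 lists, with no sequence under either H3K9me3 list. The next, chr8:125778985-125780100, lay within Pcnx2 and reached 204 and 128. Pknox1 (chr17:31564722-31607693), a homeobox factor that works with PBX proteins, had a maximum of 62 and 78 and 9.40% and 41.1% of its body under H1.0. Litaf (chr16:10959273-10993121), an endosomal membrane protein, had 46 and 250, with 6.51% of its body under weaker peaks of H3K9me3 replicate 2. Fbxl18, a subunit of a ubiquitin ligase, had 52 and 63, and Ankar, an ankyrin and armadillo repeat gene, had 33 and 199. Mrln, which encodes the muscle micropeptide myoregulin that restrains the calcium pump SERCA, had 48 and 45, with 8.06% and 65.0% of its body under H1.0 and none under H3K9me3. Eefsec, the elongation factor for selenocysteine, had 22 and 37. Ifna13, an interferon gene, had 32 and 46, and Lmbrd1, a lysosomal cobalamin exporter, had 35 and 35. The body of Ifna13 had 0% under H1.0 replicate 1 and 100% under H1.0 replicate 2. In each of these 8 genes at most 6.51% of the body lay under H3K9me3 in either list.

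Zfp810, a zinc finger gene, and Endog ranked first among genes of H3K9me3 alone. The first region, chr9:22264891-22288432, reached into Zfp810 and had a maximum of 60 and 210. The second, chr1:190292635-190309680, lay 122 kb from Prox1, a homeobox gene. Zfp810 (chr9:22276737-22307814) had 27.3% and 37.6% of its body under H3K9me3, and Zfp90 (chr8:106415295-106426943), a KRAB zinc finger repressor, had 45.0% and 71.6%. Endog (chr2:30171408-30174069), the mitochondrial endonuclease G, had 63.9% and 74.5%. AU041133 had 80.8% and 94.1%. Rfpl4b, a ret finger protein-like gene, had no body sequence under H3K9me3 replicate 1 and all of it (100%) under replicate 2. The others were Gm46240, Gm20385 and Gm34653, with 27.6% to 63.8%. H1.0 was not absent from these bodies. Weaker peaks of H1.0 replicate 2 covered 100% of Rfpl4b, 77.6% of Gm34653, 54.9% of Zfp810 and 52.6% of AU041133, but none of Endog, where H1.0 replicate 1 covered 28.6%.

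Genes under all 4 lists were led by Zfp980, and 3 of the first 8 were zinc finger genes of chromosome 4. Zfp980 (chr4:145670697-145704437) had 36.8% and 96.7% of its body under H1.0 and 88.8% and 100% under H3K9me3. Zfp984 had 29.5% and 77.5% under H1.0 and 58.6% and 97.6% under H3K9me3, and Zfp982 had 35.9% and 76.8%, then 58.2% and 100%. The region that holds Zfp980, chr4:145663463-145726895, spanned 63433 bp. Eif4a3l1, a copy of an RNA helicase gene, had 17.2% and 100% under H1.0 and 97.9% and 100% under H3K9me3. Gm7762 had 16.1% and 29.8%, then 98.0% and 100%. Larger genes were covered in part, as in Ugt1a10, 1 of the overlapping glucuronosyltransferase genes of chromosome 1, with 8.80% and 60.3% under H1.0 and 7.80% and 20.2% under H3K9me3. Chst9, a sulfotransferase gene of 308 kb, had 1.29% and 20.4%, then 1.92% and 22.8%. Nxpe5 had 28.1% and 84.1%, then 16.9% and 19.6%. Zinc finger genes and Eif4a3l1 have near-identical copies, so reads there may be split between copies, and how the authors placed them is not given in the sources used here.

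The counts of several gene families are given beside those of all protein-coding genes, and no family was tested against the rest. Of 424 zinc finger genes, 62 (14.6%) were marked by H3K9me3 alone and 44 (10.4%) by all 4 lists, against 5.30% and 4.16% of all protein-coding genes, while 17 (4.01%) were marked by H1.0 alone, against 6.71%. Mean coverage of their bodies was 11.4% and 20.8% in the H3K9me3 lists, against 1.77% and 6.57% over all genes, and 5.83% and 33.7% in the H1.0 lists, against 6.50% and 40.2%. Zfp949 and Zkscan7 followed Zfp810 and Zfp90 in H3K9me3 alone, and Zfp672 and Zfp354a led the few of H1.0 alone. Vomeronasal type 2 receptors, which sense pheromones, had 17 of 123 (13.8%) under H3K9me3 alone, among them Vmn2r20 and Vmn2r35. Type 1 receptors had 15 of 230 (6.52%) and olfactory receptors 73 of 1110 (6.58%), near the 5.30% of all genes. H1.0 alone marked 5 (4.07%), 1 (0.435%) and 30 (2.70%) of these 3 receptor families. In H1.0 replicate 2 the median olfactory receptor nevertheless had 98.3% of its short body under a peak, against 36.9% for all genes, and in H1.0 replicate 1 the median was 0. Clustered protocadherins had 11 of 57 (19.3%) under H3K9me3 alone, where genes such as Pcdhga10 and Pcdhga11 share their last part and so the same peaks, and 2 (3.51%) under H1.0 alone, Pcdhb10 and Pcdhb11.

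Several families held no gene marked by H3K9me3 alone, a class that takes in 5.30% of all protein-coding genes. Core histone genes had 0 of 57 there and 2 (3.51%) under H1.0 alone, against 6.71% of all genes. Their mean body coverage was 0% in both H3K9me3 lists, and it was 12.1% and 84.6% in the H1.0 lists, where all genes had 6.5% and 40.2%. Hox genes had 0 of 39, with 0% and 1.11% for H3K9me3 and 6.08% and 56.1% for H1.0. By top peaks, H1.0 replicate 1 marked only 4 core histone and 7 Hox genes, where it marked 28.9% of all genes. H1.0 replicate 2 marked 29 and 17, against 29.8% of all genes. The median body coverage of both families was 0% in H1.0 replicate 1, against 1.37% for all genes. In H1.0 replicate 2 it was 100% and 61.8%, against 36.9%. Linker histone genes had 0 of 10, and H1f2 was marked by H1.0 alone. Sarcomere genes had 5 of 22 (22.7%) under H1.0 alone, 2 (9.09%, against 4.16% of all genes) under all 4 lists and 0 under H3K9me3 alone. The 5 included Actc1 (cardiac actin), with maxima of 11 and 19, Myom2 with 11 and 16, Myl7 (atrial myosin light chain) with 9 and 15, and Myom1 with 8 and 19. Among fibroblast and extracellular matrix genes, Vim (vimentin) and Col5a2 were the 2 of 26 (7.69%) marked by H1.0 alone, close to the 6.71% of all genes. Housekeeping and AP-1 genes had 0 of 15 in either class. In short lists a single gene moves the percentage by several points.

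**Figure D5:**
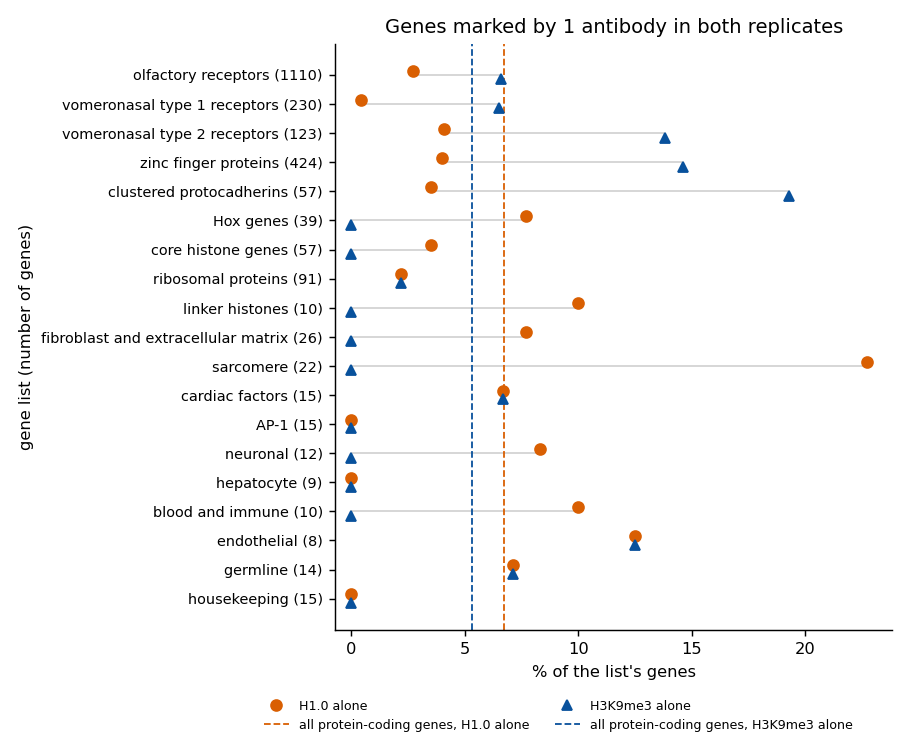
Percent of each gene list marked by H1.0 alone (circles) or H3K9me3 alone (triangles), with the number of genes in brackets and dashed lines at 6.71% and 5.30% of all protein-coding genes. Zinc finger genes lie at 14.6% for H3K9me3 alone and sarcomere genes at 22.7% for H1.0 alone.

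Lists of other lineages, of 8 to 15 genes each, had at most 1 gene in each single-antibody class, where 6.71% and 5.30% of all genes lay. Cardiac factors had Tbx20 under H1.0 alone and Gata6 under H3K9me3 alone, and endothelial genes had Vwf and Tek in that order. Gata6 and Tek did not lack H1.0. Of the body of Gata6, weaker H1.0 peaks covered 6.25% and 40.3% (replicates 1 and 2), and H3K9me3 peaks 0% and 9.29%. The H3K9me3 maxima of Gata6 were 7 and 20, where the lowest maxima among the top peaks were 7 and 17. Tek had 0.598% and 30.1% under H1.0 and 6.33% and 7.91% under H3K9me3. Germline genes had Rnf17 under H1.0 alone and Piwil1, which binds small RNAs that silence transposons, under H3K9me3 alone. Piwil1 had 49.6% and 100% of its body under H3K9me3 and 0% in both H1.0 lists. Neuronal Map2 and blood-specific Ptprc were marked by H1.0 alone, and no hepatocyte gene fell in either class. Of the ribosomal protein prefix list, 2 of 91 (2.20%) were marked by each antibody alone, against 6.71% and 5.30% of all genes, namely Rpl32l and Rps27l by H1.0 and Rps19bp1 and Rpl39l by H3K9me3, where Rps19bp1 encodes a protein that binds RPS19 and the others are relatives of ribosomal protein genes. Weaker peaks of H1.0 replicate 2 covered 53.9% of the body of Rps19bp1 and 88.7% of that of Rpl39l. H3K9me3 covered 0% of Rps19bp1 in both lists, and 0% and 21.7% of Rpl39l. Peak lists hold no expression, so the labelled cell type was not checked from them.

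None of the writers and readers of H3K9me3 examined, nor H1f0 or Junb, had H3K9me3 in its own body. This was the usual state, since the median protein-coding gene had 0% of its body under either H3K9me3 list. H1f0 (chr15:79028212-79030504) had 0% of its body under H1.0 replicate 1, 100% under H1.0 replicate 2, with a maximum of 16, and 0% under H3K9me3. Junb, the AP-1 gene named in the study's title, had 0% in all 4 lists, as had Suv39h1. Suv39h2 had 5.99% and 8.05% under H1.0 and none under H3K9me3, and Trim28 had 13.5% under H1.0 replicate 1 alone. Cbx5 had 51.4% under H1.0 replicate 2 alone. Setdb1 counted as marked by H3K9me3 alone through peaks in its 5 kb flanks, with maxima of 7 and 20, and its body had 0% under H3K9me3 and 10.2% under H1.0 replicate 2.

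The reprogramming genes were free of strong H3K9me3, as were most genes, since the H3K9me3 lists marked 16.3% and 22.7% of protein-coding genes. Mean body coverage over all protein-coding genes was 6.50% and 40.2% for H1.0 and 1.77% and 6.57% for H3K9me3. Mef2c had 0.776% and 39.8% of its body under H1.0 and 0% under H3K9me3. Gata4 had 4.14% and 22.0%, then 0% and 7.25%, and Tbx5 had 0% and 43.4%, then 0% in both. Myh6, the reporter's gene, had 13.8% and 31.7% under H1.0 and none under H3K9me3. Col1a1, the main fibroblast collagen, had 18% under H1.0 replicate 2 alone, and Actb had 24.5% there alone. Thy1, a fibroblast surface marker, had 0% of its body in every list, with H1.0 peaks of 9 and 19 and an H3K9me3 replicate 2 peak of 18 in its flanks.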

How the data were processed

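The deposited lists, 1 per sample, give for each peak its summed signal and its highest signal, both whole numbers. These are the authors' own values and were used only to rank peaks within a list. Bowtie2, SEACR and the build mm10 are named in the submitters' processing notes, and versions are not given in the sources used here, nor is the part of the IgG samples in the threshold. The list names carry SEACR's relaxed setting. No scaling or repeat filter was added here, and IgG and MEF2C samples were not used.

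Peaks were ranked by maximum signal, with ties ordered by summed signal (at the limit of the top 20000, 2422 of 17104, 1218 of 8219, 3600 of 3752 and 1664 of 2332 tied peaks entered in H1.0 replicates 1 and 2 and H3K9me3 replicates 1 and 2). Covered lengths and overlaps of at least 1 bp were computed in Python 3.11.15 with numpy 2.4.6 and pandas 2.3.3, drawn with matplotlib 3.10.9, and the functions were tested on simulated data. Shares of the genome are of 2631.6 Mb, the sum of the highest coordinates seen. Coordinates are 1-based on mm10. Gene positions were those of RefSeq on GRCm38.p6 (49554 genes on these chromosomes, 21631 protein-coding), in a table without strand or exons, so parts of a gene were not separated. Starts came from the promoter table.

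Lists were compared with exact two-sided permutation tests, whose smallest p is 0.333 for 2 against 2 and 0.0286 for 4 against 4, against a threshold of 0.05. Genes and peaks are not replicates and were not tested. For each class (H1.0 alone, H3K9me3 alone, all 4 lists) the 8 genes with non-overlapping windows and the first 5 regions by the lower percentile over the defining lists were named or summarised, with up to 4 members per gene list in each single-antibody class and 14 genes whatever their values. Lists by symbol prefix also take similarly named genes. The comparison, members and lists were chosen with earlier results of these data known. A result on 1 gene that the naming rule selects is not reported here.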

Additional observations from a re-analysis of the deposited data

Results flagged for a closer look

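Some peaks lay outside chromosomes 1 to 19 and X, on sequence that none of the comparisons above used. They numbered 261 in H1.0 replicate 1, 471 in H1.0 replicate 2, 219 in H3K9me3 replicate 1 and 283 in H3K9me3 replicate 2, and no control list was used to set against them.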

How the results depend on the processing

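The mean excess of overlap within antibodies kept its direction under every alternative run. With all peaks the Jaccard index was 19.8% for the H3K9me3 pair and 4.67% for the H1.0 pair. The latter was below the 8.26% between H1.0 replicate 2 and H3K9me3 replicate 2. The gene-body, gene-end and chromosome X differences kept their direction under all but the smallest sets of peaks. With the top 100 peaks gene bodies turned to -7.16, gene ends to -5.50 and chromosome X to 11.5 percentage points, and with the top 1000 chromosome X was at 2.11. Adding the day 1 lists moved gene bodies to 21.9, gene ends to 10.4 and chromosome X to -2.04 percentage points, past 0.05. Leaving out 1 list gave 14.6 to 25.8 for gene bodies, 10.0 to 11.8 for gene ends and -2.03 to -1.89 for chromosome X. The width difference was -1067 bp over all peaks. It turned to 780 bp when peaks were ranked by summed signal and to 1616 bp when peaks under 1 kb apart were joined. With 1 list left out it ran from -2166 to 1413 bp. Covered length turned to -26.9 Mb over the top 20000 peaks and ran from -97.2 to 919 Mb with 1 list left out. The mean log2 ratio of H1.0 over H3K9me3 sequence moved to 0.63 with the top 20000 peaks of each list and ran from -0.28 to 0.49 with 1 list left out. Genes of H1.0 alone numbered 304, 691 and 8135 with the top 5000, the top 10000 and all peaks, and 1490 to 4138 with 1 list left out. Those of H3K9me3 alone numbered 679 with the top 5000, 46 with all peaks, 437 with peaks up to 50 Mb and 198 with the top 10% of each list, and 1268 to 1834 with 1 list left out. Those of all 4 lists numbered 131, 362, 2851, 485 and 233 with the top 5000, top 10000, all peaks, 50 Mb and top 10%, and 938 to 1587 with 1 list left out. The number of peaks taken sets these counts by construction. Leaving out a list drops a condition of a class, so those counts could only stay or rise. The cause of the other shifts was not tested. The top 100, top 1000, top 10% and random ordering of ties were chosen after seeing the data. With the replicate number as a block (sign flips of 2 pairs, smallest exact p 0.5), gene bodies differed by 20.2, gene ends by 10.9 and chromosome X by -1.96 percentage points, and the block changed no call. The deviations of same-numbered lists from their group means correlated at -0.05 over 2641 bins of 1 Mb. The numbers were therefore not taken to pair the lists, although they match the 2 series of list names. That correlation concerns only where the top 20000 peaks lay and cannot exclude pairing in other measures. Median width and covered length were both larger in replicate 2 of each antibody. Of the 24 genes ranked first in the classes, 16 kept their class when peaks were ranked by summed signal, 22 with peaks up to 50 Mb or with the gene body alone, and 14 with all peaks. Aligned depth is unknown, so a gene without a peak cannot be told from one too thinly read.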

Other observations

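Among the top 100 peaks of H1.0 replicate 2, 8 lay on chromosome X and made up 26.3% of the sequence, and in the other 3 lists the top 100 held 1.44% to 4.16% there. Chromosome X was spread unevenly over the ranks of the longer lists. In H1.0 replicate 2 it held 1.54% of the sequence of the highest 10% of peaks by maximum signal and 7.90% of the lowest 10%, and in H3K9me3 replicate 2 it held 3.30% and 7.51%, against 6.49% of the genome. In the shorter lists the highest and lowest 10% held 1.96% and 2.65% (H1.0 replicate 1) and 3.38% and 2.31% (H3K9me3 replicate 1).

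Sequence under both H1.0 lists, with all peaks, came to 53.6 Mb, of which 51.1% lay in gene bodies. Sequence under both H3K9me3 lists came to 62.8 Mb, of which 28.7% did. The 4 lists shared 2.03 Mb, which is 3.79% of the former and 3.24% of the latter. The sequence common to both H1.0 lists was 2.04% of the genome, so the ratio to the genome share was 1.59. With the top 20000 peaks that ratio was 6.19, over 0.440 Mb shared by the 4 lists.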
